A study of Mus musculus with 26 samples.

Results

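The 10 genes described here belong to the unfolded protein response and the integrated stress response: Atf4, Ddit3, Trib3, Asns, Chac1, Atf3, Hspa5, Xbp1, Herpud1 and Ddit4. They were found by symbol among 56941 genes in tables of counts and of TPM (transcript abundance per length, scaled to a total of 1000000 per library). The 10 symbols matched 11 rows, because Ddit3 stood under a pair of identifiers; the second of these had 0 counts in all 26 libraries, and values are those of the first (ENSMUSG00000025408).

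The unfolded protein response is set off by misfolded protein in the endoplasmic reticulum (ER). Of its sensors, PERK phosphorylates the translation factor eIF2, IRE1 splices Xbp1 mRNA into the form that encodes an active transcription factor, and ATF6 is cleaved to release another. Kinases that sense amino acid shortage, double-stranded RNA or haem shortage act on the same site of eIF2, and the shared output is called the integrated stress response. Phosphorylated eIF2 slows translation in general but lets the ATF4 protein be made from its mRNA, and ATF4 then switches on genes of amino acid supply, redox balance and, when stress lasts, cell death. Much of the regulation of ATF4 and XBP1 thus lies in translation and splicing, which gene-level RNA totals do not show.

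RNA was sequenced from spheroids of neurons differentiated from mouse embryonic stem cells of the line HBG3, which carries an HB9::GFP reporter and whose genotype is labelled heterozygous blastocysts. All groups share this line, retinoic acid and purmorphamine (labelled puromorphamine) as patterning agents, ciliary and glial-derived neurotrophic factors, and a fibrin platform on which spheroids of about day 8 were seeded. The 5 groups were biochemical controls (n = 6), a treatment labelled High intensity biochem (n = 6), a treatment labelled Low intensity biochem (n = 6), a silicone array with magnets that was never moved (static array, n = 4), and the same kind of array actuated for 30 min a day at 4 Hz (actuated array, n = 4). The design text describes medium taken from optogenetic muscle that was or was not stimulated with light, and the labels do not pair these media with high and low intensity, so the groups keep their intensity names. All libraries come from 1 stem cell line, and nothing in the labels says that replicates were separate cultures, so p-values measure the spread between these samples, which may be technical.

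Depth set the libraries used. In 21 libraries, called deeper below, total counts lay between 1551334 and 13162635. The other 5 held under 1000000 protein-coding counts: control replicate 4, high intensity replicates 4 and 5, low intensity replicate 6 (1536 counts in all) and static array replicate 3. Results are given for the deeper libraries and again with all 26. Motor neuron markers, among them Mnx1 (HB9), Isl1 and Chat, were detected in every group with 8 of 8 genes and summed to 71.9 to 157 CPM (counts scaled to a library total of 1000000) per deeper library. Markers of pluripotent cells summed to at most 8.31 CPM. Markers of other cell types were present too. Summed astrocyte markers ranged from 1691 to 3844 CPM and fibroblast markers from 164 to 2721 CPM, and skeletal muscle markers from 7.51 to 192 CPM.

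Known control elements of these genes can be read in their promoters, and 5 are shown because they carry the letters that ATF4 or the ATF6 and XBP1 factors are known to bind. RefSeq promoters (GRCm38.p6) were matched for all 10 genes, and the 250 bases before each start were searched on both strands. The C/EBP-ATF response element core, TGATGNAA, lay in Asns, Chac1, Atf3 and Herpud1 and in 3.45% of all 32851 promoters. The ER stress response element (ERSE), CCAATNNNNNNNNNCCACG, lay in Hspa5 and in 0.113% of all promoters. The second ER stress element (ERSE-II), ATTGGNCCACG, lay in Herpud1 and in 0.0304% of all promoters. The cyclic AMP response element TGACGTCA lay in none of the 10 and in 1.55% of all promoters. Each stretch below runs 5′ to 3′ along the gene's own strand, with the fixed letters of the element in capitals; where the core lies on the other strand, as in Chac1, Atf3 and Herpud1, its reverse complement is printed. The intervals are chr6:7693210-7693252 (minus strand) for Asns, chr2:119351029-119351076 (plus) for Chac1, chr1:191183416-191183463 (minus) for Atf3, chr2:34772005-34772063 (plus) for Hspa5 and chr8:94386297-94386407 (plus) for Herpud1.
Asns: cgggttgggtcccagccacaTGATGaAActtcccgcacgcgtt
Chac1: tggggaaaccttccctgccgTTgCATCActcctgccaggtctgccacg
Atf3: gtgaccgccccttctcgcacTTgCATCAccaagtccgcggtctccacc
Hspa5: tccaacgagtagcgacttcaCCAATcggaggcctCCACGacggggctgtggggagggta
Herpud1: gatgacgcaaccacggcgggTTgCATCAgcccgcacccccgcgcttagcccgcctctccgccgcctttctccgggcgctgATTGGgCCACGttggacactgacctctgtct
A match describes these letters only, and no binding was measured. Herpud1 held both a TGATGNAA core and an ERSE-II. Atf4, Ddit3, Trib3, Xbp1 and Ddit4 held none of these letters in this window.

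Atf4 was the only one of the 10 genes that edgeR called. It encodes the transcription factor at the centre of the integrated stress response. The controls held 112, 110.0, 95.8, 113 and 112 CPM in replicates 1, 2, 3, 5 and 6 (normalised by the trimmed mean of M values, TMM). At low intensity, replicates 1 to 5 held 199.7, 173, 170.0, 185 and 214 CPM. All 5 low intensity libraries stood above all 5 controls. The groups averaged 188 ± 18.6 CPM (SD, n = 5) and 109 ± 7.24 CPM (SD, n = 5). Atf4 was thus 1.73-fold higher at low intensity (95% interval 1.48 to 2.03), a log2 fold change of 0.79 (SE 0.11, adjusted p = 0.00293 by edgeR's quasi-likelihood test). Its unadjusted p of 1.99e-07 was the smallest of the 14730 genes fitted. In this comparison 1 of the 10 genes was called at an adjusted p under 0.05, against 0.597% of all genes. Groups that did not overlap, with low intensity higher, were seen for 1.28% of all genes. In bulk RNA, fewer cells of a type and less RNA per cell cannot be told apart.

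On the static array, Atf4 stood near its low intensity level, with 160.0, 202 and 183 CPM in replicates 1, 2 and 4. All 3 libraries were above every control. The mean of 182 ± 21 CPM (SD, n = 3) was 1.67-fold that of the controls (95% interval 1.4 to 2.0), a log2 fold change of 0.74 (SE 0.12, adjusted p = 0.00392 by edgeR). Here too 1 of 10 genes was called, against 0.713% of all genes, and 4.52% of all genes were higher on the static array without overlap. The low intensity, high intensity and static array comparisons share the control libraries, and the array and biochemical arms of the study cannot be told apart from any difference in handling between them.

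Moving the array left no change detectable in Atf4. The actuated libraries held 176, 189, 183 and 207 CPM in replicates 1 to 4 and overlapped the static ones. The log2 fold change was 0.06 (SE 0.13, adjusted p = 1 by edgeR), and the interval of the ratio ran from 0.864 to 1.25.

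At high intensity, Atf4 lay between the controls and low intensity. Replicates 1, 2, 3 and 6 held 118, 100.1, 153 and 128 CPM, with a mean of 125 ± 22.2 CPM (SD, n = 4). These overlapped the controls, and the log2 fold change over control was 0.20 (SE 0.12, adjusted p = 0.431 by edgeR), and -0.19 (SE 0.33) with all 26 libraries. All 4 stood below all 5 low intensity libraries, a separation in this direction that 1.35% of all genes showed. The log2 difference from low intensity was -0.60 (SE 0.12, adjusted p = 0.0939 by edgeR), the fifth smallest p of all genes and short of the threshold. DESeq2 gave an adjusted p of 0.000667 for the same difference, and edgeR gave 0.0334 without high intensity replicate 3, the highest of its group. Over all 21 fits that left out 1 library the difference ran from -0.71 to -0.51. The edgeR adjusted p in these fits ran from 0.0334 to 0.391, and Atf4 was not called here by edgeR with all 26 libraries.

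**Figure D1:**
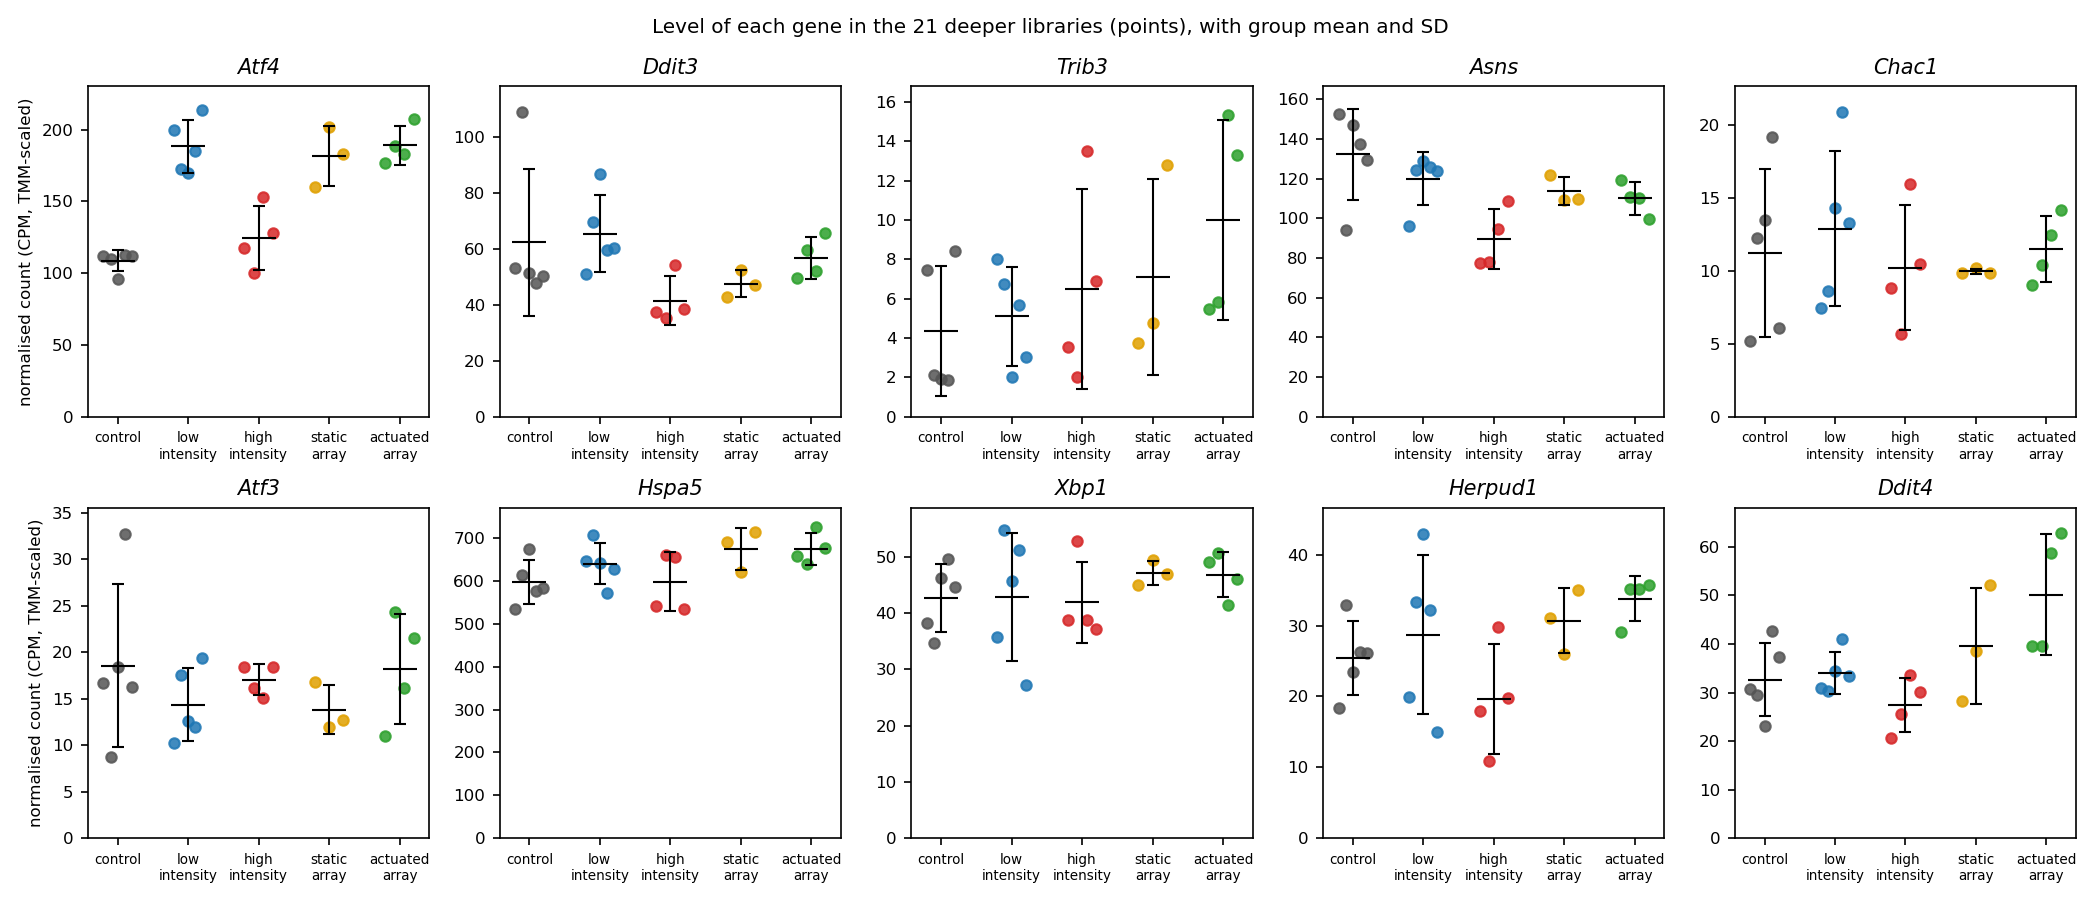
Normalised counts (TMM-scaled CPM, vertical axes from 0) of the 10 genes in the 21 deeper libraries, 1 point per library, with horizontal bars for group means and error bars for the SD. Atf4 of the 5 control libraries (95.8 to 113 CPM) lies below every low intensity, static and actuated library, while the groups of the other 9 genes overlap in each comparison tested.

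Library composition differed between the controls and the groups with more Atf4. Genes of short noncoding RNA took 49.3 to 72.4% of TPM in the deeper controls and 29.3 to 39.1% at low intensity, 33.8 to 44.7% on the static array, 27.9 to 44.5% on the actuated array and 31.2 to 54.7% at high intensity. Protein-coding genes took 73.7 to 78.9% of counts in the deeper controls and 81.6 to 86.7% at low intensity. The part of composition in the Atf4 result was not tested. As CPM of protein-coding counts Atf4 was at 111 to 138 in the controls and 203 to 249 at low intensity, 192 to 240 on the static array and 210 to 248 on the actuated array. A fit of protein-coding genes alone gave a log2 fold change of 0.79 at low intensity (SE 0.11, adjusted p = 0.00237 by edgeR) and 0.72 on the static array (SE 0.12, adjusted p = 0.00403 by edgeR), where 0.803% and 0.712% of all genes were called. Summed neural progenitor markers (6 of 6 genes detected, none at 0) were 529 to 687 CPM in the controls, 659 to 940 CPM at low intensity and 786 to 977 CPM on the static array. Summed astrocyte markers (5 of 5 detected, none at 0) were 1691 to 2187, 1848 to 3359 and 2790 to 3602 CPM in those groups. These sums are shares of total counts. By the TMM-scaled edgeR fit, the median log2 fold change of progenitor markers was 0.04 at low intensity and 0.20 on the static array. At low intensity 1 of 6 was called higher (beside 0.597% of all genes), and on the static array 0 (beside 0.713%). Astrocyte markers had medians of 0.28 and 0.48, with 0 of 5 called in either. Summed fibroblast markers (8 of 8 detected, none at 0) were 358 to 810 CPM in the controls and 294 to 2721 CPM at low intensity. Muscle markers were 7.51 to 102 CPM in the controls (8 of 10 detected, Myod1 and Myog at 0) and 11.1 to 161 CPM at low intensity (10 of 10). Summed motor neuron markers (8 of 8 detected, none at 0) were 104 to 157 CPM in the controls, 71.9 to 122 CPM at low intensity and 81.6 to 96.6 CPM on the static array, lower there without overlap. The static array libraries also stood apart from the controls in rRNA (7.68 to 8.81% of counts against 11.2 to 16.4%), in mitochondrial genes (7.30 to 8.04% against 11.7 to 17.5%) and in depth (7724923 to 13162635 total counts against 2273487 to 3771637). The part of these cell types and library properties in the Atf4 result was not tested.

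**Figure D2:**
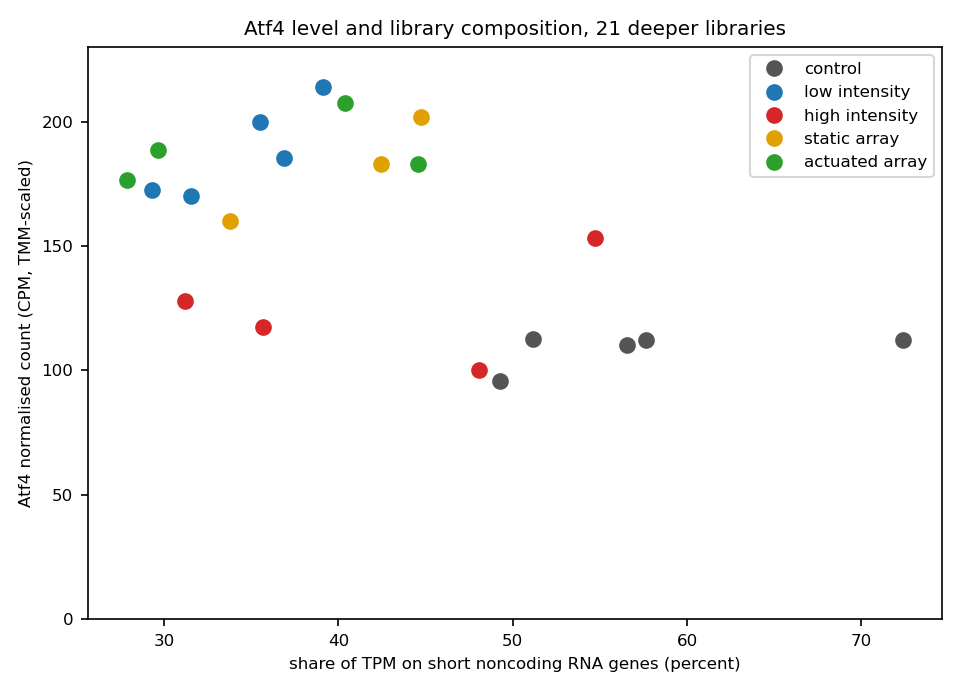
Atf4 level (TMM-scaled CPM, vertical axis from 0) against the percentage of TPM on short noncoding RNA genes (horizontal axis) in the 21 deeper libraries, 1 point per library, coloured by group. The controls sit at 49.3 to 72.4% and 95.8 to 113 CPM, and the high intensity libraries at 31.2 to 54.7% and 100.1 to 153 CPM.

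With the 5 shallow libraries included, Atf4 was not called. The log2 fold change at low intensity was 0.49 (SE 0.33, adjusted p = 1.00 by edgeR), and on the static array 0.53 (SE 0.36, adjusted p = 1.00 by edgeR). None of the 10 genes was called by edgeR in any of the 5 comparisons of all 26 libraries, where 0.0402% of all genes were called at high intensity against control, 0.0268% at low intensity against control, 0.0134% on the static array against control and 0% in the remaining comparisons. At an unadjusted p under 0.05 there was 1 of the 10 at high intensity over control (beside 7.04% of all genes), 0 at low intensity (5.23%), 0 on the static array (5.27%), 2 at high against low intensity (2.91%) and 0 between the arrays (3.86%). The shallow libraries carried 76 Atf4 counts in control replicate 4, 0 in low intensity replicate 6, 12 and 42 in high intensity replicates 4 and 5 and 99 in static array replicate 3. Control replicate 4 had Atf4 at 279 CPM of protein-coding counts, above every deeper library. In that library rRNA took 78.4% of counts and protein-coding genes 18.7%. Its protein-coding counts were 272212, and Asns, Atf3, Chac1 and Trib3 had 0 counts in it. Using all 26 libraries raised the common dispersion from 0.0923 to 0.251. An alternative chosen after seeing the data left out control replicate 4 and low intensity replicate 6. Its low intensity log2 fold change was 0.81 (SE 0.22), with an unadjusted p of 0.000829 and an adjusted p of 0.336 by edgeR.

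Asns and Ddit3 were lowest at high intensity, without reaching the threshold of the main test. Asns encodes asparagine synthetase, a target of ATF4 whose promoter holds the TGATGNAA core shown above. Its controls held 152, 94.3, 147, 138 and 129.5 CPM, and its high intensity libraries 77.4, 77.8, 94.4 and 109 CPM. The groups overlapped, with control replicate 2 at 94.3 CPM among the high intensity libraries. The log2 fold change was -0.56 (SE 0.14, adjusted p = 0.0542 by edgeR). Without control replicate 2 it was -0.66 (adjusted p = 0.0316 by edgeR), and without high intensity replicate 6 it was -0.66 (adjusted p = 0.0242 by edgeR). Over all 21 fits that left out 1 library it ran from -0.66 to -0.49, with edgeR adjusted p from 0.0242 to 0.175. Low intensity Asns, at 96.3, 124, 129, 126 and 124 CPM, gave a log2 fold change of -0.14 over control (SE 0.13, adjusted p = 0.642 by edgeR), and high intensity stood -0.42 from low intensity (SE 0.14, adjusted p = 0.469 by edgeR). Summed fibroblast markers were 1022 to 2513 CPM at high intensity (8 of 8 detected, none at 0) and 358 to 810 CPM in the controls, without overlap, and their part in the Asns and Ddit3 values was not tested.

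DESeq2 called Asns at high intensity (adjusted p 0.00954), as 1 of 10 genes against 3.16% of all genes. It called Atf4, again 1 of 10, at low intensity against control, where 3.19% of all genes were called, on the static array against control (2.58%) and at high against low intensity (0.333%). In the last of these, 4 of the 10 genes had no DESeq2 adjusted p. Between actuated and static arrays it called 0 of 10 and 0.0136% of all genes. By edgeR, 0 of 10 genes were called at high intensity against control, where 0.462% of all genes were, and 2 of 10 had an unadjusted p under 0.05, beside 15.9% of all genes. High against low intensity likewise had 0 of 10 called and 0% of all genes, with 3 of 10 (Atf4, Asns and Ddit3) at an unadjusted p under 0.05 beside 7.68% of all genes.

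Ddit3 encodes CHOP, a transcription factor induced by ATF4 and tied to cell death in lasting ER stress. Its controls held 53.2, 109, 51.5, 47.7 and 50.1 CPM, so control replicate 2 stood apart from the others. At high intensity Ddit3 was at 37.6, 35.3, 54.4 and 38.6 CPM, and at low intensity at 50.9, 69.7, 86.9, 59.4 and 60.2 CPM. The log2 difference was -0.59 from control (SE 0.22, adjusted p = 0.166 by edgeR; -0.30 without control replicate 2) and -0.66 from low intensity (SE 0.22, adjusted p = 0.469 by edgeR). Over all 21 fits that left out 1 library the difference from control ran from -0.75 to -0.30, and that from low intensity from -0.81 to -0.53. High intensity overlapped both control and low intensity, with replicate 3 at 54.4 CPM inside their ranges. Ddit3 was at 43.0 to 52.6 CPM on the static array and 49.5 to 65.8 CPM on the actuated array.

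Trib3, Chac1 and Atf3 are further targets of the ATF4 branch and had the lowest median TPM of the 10 over the deeper libraries. Trib3 encodes a pseudokinase that feeds back on ATF4 and CHOP, and 4 to 139 counts stood behind each value. Its controls held 7.48, 2.10, 1.92, 1.87 and 8.40 CPM, its static array libraries 3.73, 4.76 and 12.8 CPM and its actuated libraries 5.48, 5.82, 15.3 and 13.3 CPM. High intensity held 3.53, 2.03, 13.5 and 6.89 CPM and low intensity 8.02, 6.74, 2.04, 5.69 and 3.06 CPM. All groups overlapped, and the SD was 49.0 to 78.6% of the mean within a group. The log2 fold changes of 0.66 on the static array (SE 0.62, adjusted p = 0.718 by edgeR), 0.52 at high intensity over control (SE 0.60, adjusted p = 0.736 by edgeR) and 0.50 between actuated and static arrays (SE 0.63, adjusted p = 1 by edgeR) were of the size of their errors. Leaving out 1 library gave -0.059 to 1.03, -0.086 to 0.89 and 0.19 to 1.22 in these comparisons.

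Chac1 encodes an enzyme that breaks down glutathione. It averaged 11.2 ± 5.75 CPM (SD, n = 5) in controls, 12.9 ± 5.32 (n = 5) at low intensity, 10.2 ± 4.30 (n = 4) at high intensity, 9.96 ± 0.199 (n = 3) on the static array and 11.5 ± 2.27 CPM (n = 4) on the actuated array. At low intensity its libraries held 7.47, 8.61, 14.3, 20.9 and 13.3 CPM and its controls 5.18, 12.3, 13.5, 19.2 and 6.09 CPM, and the log2 fold change of 0.20 (SE 0.35, adjusted p = 0.848 by edgeR) was smaller than its error and ran from -0.020 to 0.47 as single libraries were left out. Both groups covered nearly the same range.

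Atf3 encodes a transcription factor that responds to ER stress and to axon injury. The controls held 16.7, 8.76, 18.5, 32.8 and 16.2 CPM, low intensity 10.2, 17.6, 12.6, 12 and 19.4 CPM and high intensity 18.4, 16.2, 15.1 and 18.5 CPM. The static array held 16.8, 12 and 12.7 CPM and the actuated array 11.0, 24.3, 16.1 and 21.5 CPM. All groups overlapped, and the log2 fold changes were -0.35 at low intensity (SE 0.29, adjusted p = 0.607 by edgeR), -0.41 on the static array (SE 0.32, adjusted p = 0.643 by edgeR) and 0.40 for actuated over static array (SE 0.33, adjusted p = 1 by edgeR). Without control replicate 5 the low intensity value was -0.064 and the static array value -0.12, without control replicate 2 the low intensity value was -0.53, and without actuated array replicate 2 the array value was 0.22. Of the 3 genes with a TGATGNAA core beside Asns (Chac1, Atf3 and Herpud1), none was called in any comparison by edgeR or DESeq2. Over the comparisons edgeR called 0 to 0.713% of all genes and DESeq2 0.0136 to 3.19%, so 3 uncalled genes say little about the element. At high against low intensity DESeq2 gave no adjusted p for 4 of the 10 genes.

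No gene of the ER branch was called. Hspa5 encodes BiP, the main ER chaperone and the usual readout of ER stress, and its promoter holds the ERSE shown above. It averaged 597 ± 51.6 CPM (SD, n = 5) in controls, 639 ± 47.8 (n = 5) at low intensity, 598 ± 69.2 (n = 4) at high intensity, 675 ± 49.1 (n = 3) on the static array and 675 ± 37.3 CPM (n = 4) on the actuated array. Its fold changes were the most precise of the 10. The ratio to control was 1.07 at low intensity (95% interval 0.943 to 1.22), 1.00 at high intensity (0.874 to 1.15) and 1.13 on the static array (0.977 to 1.31), and the ratio of actuated to static array was 1.00 (0.857 to 1.17). No comparison reached the threshold (edgeR adjusted p from 0.503 to 1).

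Xbp1, the target of IRE1 splicing, averaged 42.7 ± 6.06 CPM (SD, n = 5) in controls, 42.9 ± 11.3 (n = 5) at low intensity, 41.9 ± 7.25 (n = 4) at high intensity, 47.1 ± 2.17 (n = 3) on the static array and 46.8 ± 4.01 CPM (n = 4) on the actuated array. Its log2 fold changes ran from -0.03 to 0.14 over the 5 comparisons, and gene-level counts do not separate its spliced from its unspliced form.

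Herpud1 encodes an ER membrane protein of ER-associated degradation. Its high intensity libraries held 17.9, 10.9, 29.8 and 19.8 CPM, its low intensity libraries 19.9, 33.3, 42.9, 32.2 and 15.0 CPM and its controls 18.4, 32.9, 23.5, 26.2 and 26.1 CPM. The static array held 31.1, 26 and 35.0 CPM and the actuated array 29.1, 35.2, 35.2 and 35.7 CPM. High and low intensity overlapped, with a log2 difference of -0.54 (SE 0.27, adjusted p = 0.659 by edgeR). It became -0.35 once high intensity replicate 2 was left out, and -0.33 once low intensity replicate 3 was. Over all 21 fits that left out 1 library it ran from -0.80 to -0.33.

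Ddit4 encodes REDD1, an inhibitor of mTORC1 that is induced by ATF4 and by other stresses. The actuated array held 39.5, 39.5, 58.7 and 62.9 CPM and the static array 28.3, 38.5 and 52.1 CPM. The groups overlapped, and the log2 fold change was 0.34 (SE 0.23, adjusted p = 1 by edgeR). It was 0.15 without static array replicate 1, 0.21 without actuated array replicate 4 and 0.59 without static array replicate 4. Ddit4 averaged 32.6 ± 7.53 CPM (SD, n = 5) in controls, 34.0 ± 4.28 CPM (n = 5) at low intensity and 27.4 ± 5.57 CPM (n = 4) at high intensity.

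Between actuated and static arrays, 0 of the 10 genes and 0% of all genes were called by edgeR, and 0 of 10 had an unadjusted p under 0.05, beside 0.38% of all genes. A share of 0.38% is far below the 0.05 that a calibrated test gives without true differences. The p-values between the arrays thus ran high, and changes could be missed there. The median log2 fold change of the 10 genes was 0.17 between these arrays, 0.09 at low intensity, -0.11 at high intensity and 0.16 on the static array over control, and -0.31 at high against low intensity, where all genes had medians between -0.01 and 0.01. At high against low intensity, 2 of 10 estimates were above 0, beside 51.5% of all genes.

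**Figure D3:**
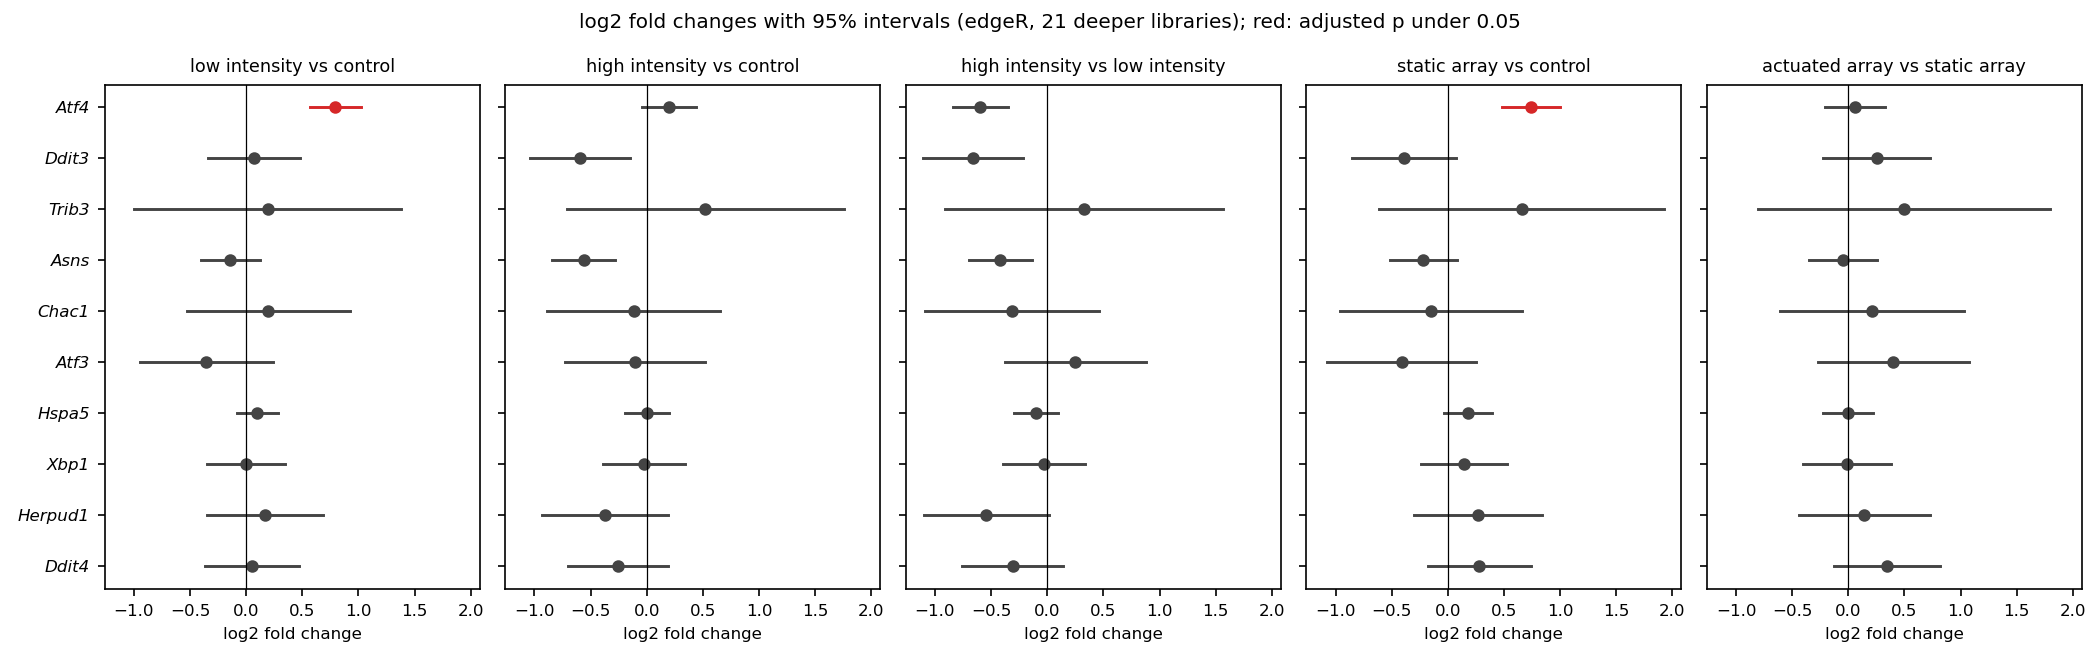
Log2 fold changes (horizontal axes) with 95% intervals from the edgeR fit of the 21 deeper libraries, 1 panel per comparison and 1 row per gene; red marks an adjusted p under 0.05. Atf4 is red at low intensity against control (0.79) and static array against control (0.74), and the intervals of Trib3 are the widest.

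Compared per length in TPM, Hspa5 was the most abundant of the 10 in all 21 deeper libraries, with a median of 287 TPM. Atf4 (128 TPM) and Ddit3 (121 TPM) followed, and their order differed between groups. The ratio of Atf4 to Ddit3 TPM was 0.326 to 0.738 in controls and 0.806 to 0.983 at high intensity, so Ddit3 was above Atf4 in all of these libraries. It was 0.647 to 1.17 at low intensity, overlapping the controls, 1.08 to 1.18 on the static array and 0.904 to 1.14 on the actuated array. Asns had a median of 66.1 TPM, Xbp1 31.7, Ddit4 24.7, Herpud1 19.4, Atf3 15.7, Chac1 8.56 and Trib3 4.15 TPM. These medians pool groups of different level, and Atf3 ranked from 5 to 9 by library. The ranges over libraries overlapped between all neighbours in this order, which is one of levels, not of differences. TPM depends on the share taken by short noncoding RNA, so levels were also set against each other within a library. The ratio of Atf4 to Hspa5 TPM was 0.201 to 0.342 in controls, 0.391 to 0.521 at low intensity, 0.382 to 0.524 on the static array, 0.404 to 0.493 on the actuated array and 0.25 to 0.375 at high intensity. The ratio of Atf4 to Asns TPM was 0.768 to 1.38 in controls and 1.53 to 2.41 at low intensity. It was 1.54 to 2.17 on the static array, 1.81 to 2.46 on the actuated array and 1.36 to 1.82 at high intensity. Relative to Hspa5 and to Asns, but not to Ddit3, Atf4 was higher in each low intensity library than in each control. The ratios to Hspa5, to Asns and to Ddit3 were all above every control on the static and actuated arrays. At high intensity the ratio to Ddit3 was above every control, and those to Hspa5 and to Asns overlapped the controls. The share of all genes whose ratios separate in this way was not computed.

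On the TPM scale itself all comparisons with the controls shifted upward. With log2(TPM + 1) and limma, the median of all genes moved to 0.57 at low intensity, 0.50 at high intensity and 0.46 on the static array. Atf4 then had a log2 fold change of 1.53 at low intensity (SE 0.18, limma adjusted p = 0.000182), where 27% of all genes were called, and it was called at high intensity too (0.80, SE 0.19, limma adjusted p = 0.0159), where 10.6% were. At high intensity on this scale Asns stood at 0.065 and Ddit3 at 0.088 over control, above 0 but below the median of all genes. After TPM values were rescaled to protein-coding genes, that median was 0.04 at low intensity and Atf4 had 0.82 (SE 0.12, limma adjusted p = 0.0125) there and 0.74 (SE 0.14, limma adjusted p = 0.0463) on the static array, with 0.2% and 0.0599% of all genes called.

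No other gene of the pathway was called by edgeR. The 89 other genes fitted fall in 6 lists, and 0 were called in any of the 5 comparisons, of the deeper libraries or of all 26. At an unadjusted p under 0.05 there were 15 of 89 at low intensity over control (beside 15.2% of all genes), 15 at high intensity (beside 15.9%), 16 on the static array (beside 12.6%), 18 at high against low intensity (beside 7.68%) and 0 between the arrays (beside 0.38%). DESeq2 called 0 of 89 at low intensity, where it called 3.19% of all genes, and 4 at high intensity (Aldh1l2, Edem1, Ppp1r15a and Sec61b), where it called 3.16%. It called 1 on the static array (Slc7a3; 2.58% of all genes), 2 at high against low intensity (Ppp1r15a and Vldlr; 0.333% of all genes, with no adjusted p for 31 of the 89) and 0 between the arrays (0.0136%).

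Genes of amino acid synthesis and transport that ATF4 is known to switch on had a median log2 fold change of 0.08 at low intensity, with 9 of 17 above 0, and of -0.07 on the static array, with 6 of 17 above 0. Of all genes, 49.1% and 49.7% were above 0 in these comparisons. The smallest p at low intensity was that of Shmt2, a mitochondrial enzyme of serine and glycine metabolism (0.63, SE 0.22, adjusted p = 0.155 by edgeR), followed by Slc3a2, the heavy chain of amino acid transporters (0.31, SE 0.11, adjusted p = 0.179 by edgeR). Slc3a2 on the static array had 0.43 (SE 0.13, adjusted p = 0.124 by edgeR). At high intensity over control, Aldh1l2, a mitochondrial folate enzyme, had -0.46 (SE 0.13, adjusted p = 0.0858 by edgeR).

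Transcription factors and feedback genes of the ATF4 branch had a median of 0.26 at low intensity. Of the 13 fitted, 9 were above 0 there, beside 49.1% of all genes. On the static array over control the median was -0.004, with 6 of 13 above 0, beside 49.7% of all genes. At high intensity over control it was -0.01, with 6 of 13 above 0, beside 50.3% of all genes. At high against low intensity the median was -0.24, with 4 of 13 above 0, beside 51.5% of all genes. Ppp1r15a encodes GADD34, which brings a phosphatase to eIF2 and ends the response. Its log2 difference at high intensity was -0.84 from low intensity (SE 0.17, adjusted p = 0.0939 by edgeR) and -0.59 from control (SE 0.17, adjusted p = 0.0895 by edgeR). Vldlr, a lipoprotein receptor, had -0.68 at high against low intensity (SE 0.17, adjusted p = 0.206 by edgeR). Sqstm1, the autophagy receptor p62, had 0.28 at low intensity over control (SE 0.10, adjusted p = 0.172 by edgeR).

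Cytosolic tRNA synthetases charge tRNAs with amino acids. Their median was 0.04 at low intensity, -0.20 at high intensity over control and -0.24 at high against low intensity. In the last comparison 0 of 12 estimates were above 0, beside 51.5% of all genes. With all 26 libraries, which include the deeper ones, 0 of 12 were above 0, beside 48.4%. On the static array over control 1 of 12 was above 0, beside 49.7%. Between the arrays 8 of 12 were, beside 49.8%, and 12 of 12 with all 26 libraries, beside 46.9%. Nars, the asparagine enzyme, had -0.35 at high against low intensity (SE 0.11, adjusted p = 0.437 by edgeR).

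ER chaperones and folding enzymes had a median of 0.03 at low intensity and of 0.23 on the static array, where 16 of 17 estimates were above 0, beside 49.7% of all genes. With all 26 libraries 13 of 17 were above 0 there, beside 59.5% of all genes, and the median was 0.16, beside 0.09 for all genes. Dnajb9, a co-chaperone of BiP, had the smallest p there (0.53, SE 0.22, adjusted p = 0.289 by edgeR). Genes of ER-associated degradation and translocation had medians of 0.08 in both comparisons. Syvn1, the ubiquitin ligase of this pathway, had -0.67 at low intensity (SE 0.21, adjusted p = 0.113 by edgeR), and Edem1, which hands misfolded glycoproteins to it, had 1.20 at high intensity (SE 0.35, adjusted p = 0.10 by edgeR). The sensors and the eIF2 machinery had medians of 0.12 at low intensity and 0.07 on the static array. Eif2ak1, the haem-sensing eIF2 kinase, had 0.34 at low intensity (SE 0.14, adjusted p = 0.231 by edgeR).

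**Figure D4:**
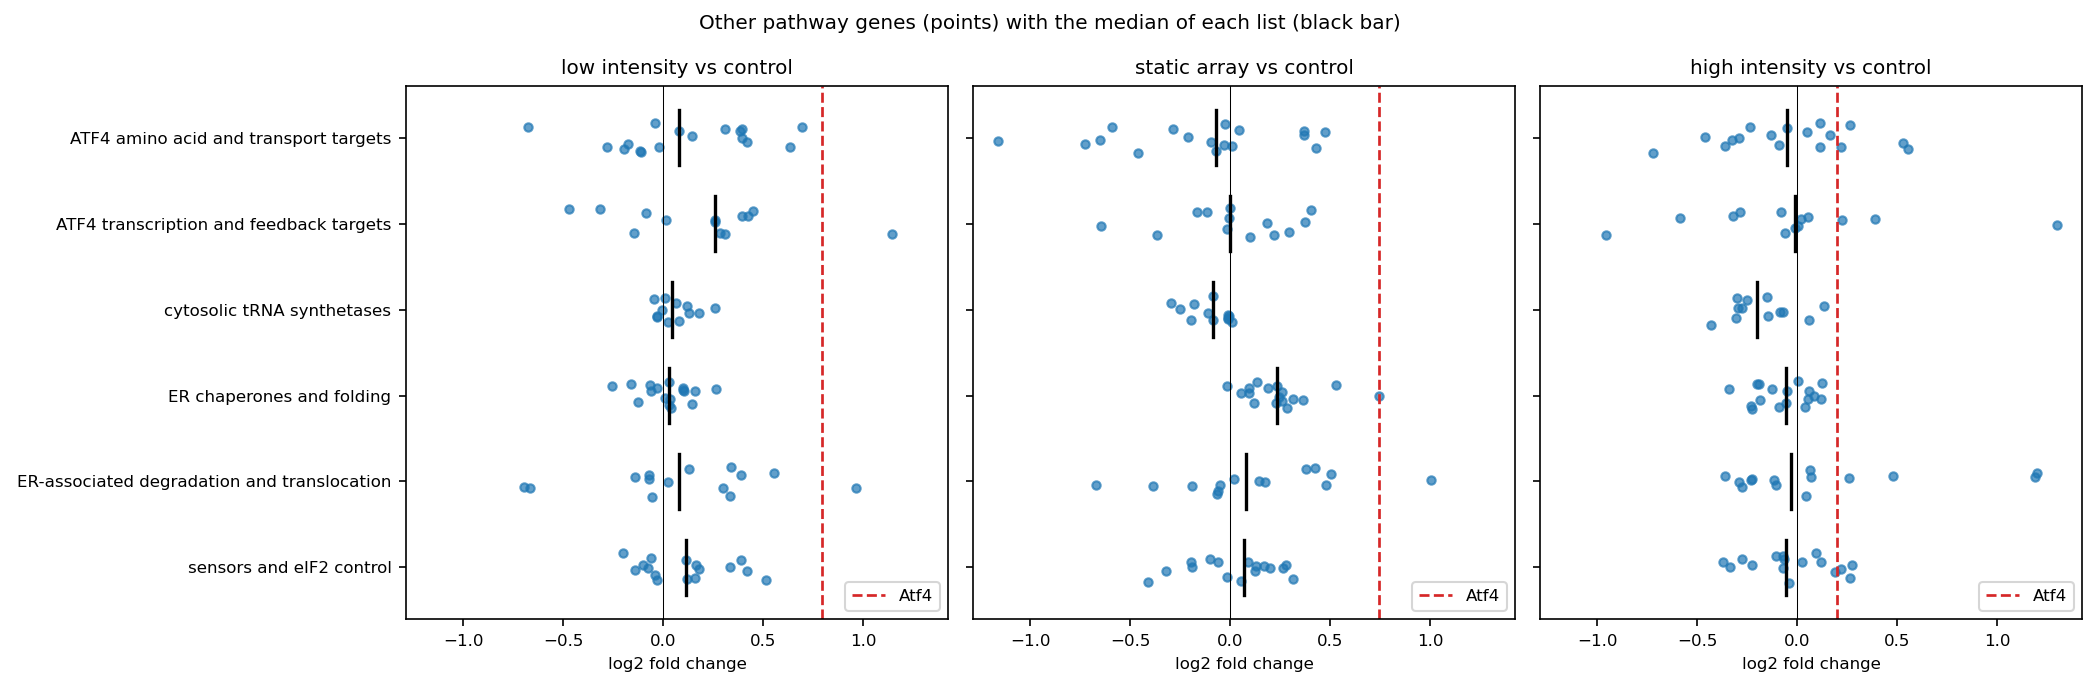
Log2 fold changes (horizontal axes) of the other pathway genes in the deeper libraries, 1 point per gene, by list, with a black bar at each list's median and a dashed line at the value of Atf4. At low intensity the list medians lie between 0.03 and 0.26, below Atf4 at 0.79, and no point passed the adjusted threshold in edgeR.

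How the 10 genes varied together was examined over the 14 deeper libraries of the biochemical arm. Of the 45 pairs, 31 had a positive and 14 a negative Pearson correlation of log2 CPM, with a median of 0.18. By permutation, 0 pairs had an adjusted p under 0.05. The smallest p was that of Ddit3 and Herpud1, with r = 0.72 (permutation p = 0.00386, adjusted over 45 pairs 0.174) and Spearman's rho = 0.68 (permutation p = 0.00875, adjusted 0.394). Without the 2 libraries farthest from the median of Ddit3 the r was 0.63, and within groups, after the group means were removed, it was 0.64.

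Among 11320 protein-coding genes with a mean of at least 5 CPM, those whose log2 CPM was most like that of Atf4 over the 21 deeper libraries were Nampt (Pearson r 0.87), an enzyme of NAD synthesis, Sdc4 (0.84), a cell surface proteoglycan, and Eef1b2 (0.84), a translation elongation factor. For Trib3 they were H4c14 (0.78), Msmo1 (0.75) and H4c4 (0.73), of which H4c14 and H4c4 encode histone H4 and Msmo1 an enzyme of cholesterol synthesis. For Hspa5 they were B2m (0.77), the light chain of class I MHC, Psmd7 (0.76), a proteasome subunit, and Rpl6 (0.76), a ribosomal protein. These are descriptions over libraries that also share depth, arm and composition.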

How the data were processed

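The authors deposited expected counts, which are whole numbers here, and TPM values for 56941 Ensembl genes in 26 libraries; each deposited TPM column sums to 1000000. Per the submitters' processing notes, BWA 0.7.12-r1039, bedtools 2.25.0, STAR and Salmon and the builds mm10, hg19 and GRCm39 were used, with no role or order stated. How strand and near-identical copies were handled is not given in the sources used here. Counts and TPM disagreed on 0 in 635 cells (count 0 only) and 528 cells (TPM 0 only). All 325 pairs of libraries differed by more than sampling noise (chi-square per degree of freedom 4.74 to 646).

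Counts were rounded and fitted with edgeR 4.0.16 (R 4.3.3): filterByExpr, TMM, quasi-likelihood F-test, 1 coefficient per group, Benjamini-Hochberg adjustment over all genes of a comparison, called under 0.05. The fit used the 21 libraries with over 1000000 protein-coding counts (14730 genes; 14907 with all 26). DESeq2 1.42.0 and limma 3.58.1 served as alternatives, and the fit was tested on simulated data. A count of 0 allows up to 3 counts, which is 0.228 to 1.93 CPM in the deeper libraries and covers counting error only. CPM values of genes are counts scaled by TMM, those of marker lists are shares of total counts, and SDs are over libraries. Permutation p-values of correlations used 100000 resamples, two-sided.

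All 10 genes are named. Values in every library are given for the 3 largest fold changes per comparison and for called genes; from each pathway list, up to 2 genes with the smallest p in a comparison are named. The genes, the lists, the motifs and the depth limit were chosen with earlier results of these data known. Promoter sequences come from RefSeq (GRCm38.p6). Whether the replicate numbers pair the libraries is not known.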

Additional observations from a re-analysis of the deposited data

Results flagged for a closer look

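Of 40 sets of a gene in a group of 4 or 5 deeper libraries, 5 held a library far from the others by Dixon's test; chance alone flags about 1 in 20. Atf4 in control replicate 3 was lowest at 95.8 CPM, beside 110.0 to 113 CPM in the other 4 controls. Ddit3 in control replicate 2 was highest at 109 CPM, beside 47.7 to 53.2 CPM. Asns in low intensity replicate 1 was lowest at 96.3 CPM, beside 124 to 129 CPM. Xbp1 in high intensity replicate 2 was highest at 52.7 CPM, beside 37.2 to 38.8 CPM. Herpud1 in actuated array replicate 1 was lowest at 29.1 CPM, beside 35.2 to 35.7 CPM.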

How the results depend on the processing

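Besides leaving out each of the 21 deeper libraries in turn, 19 alternatives were run, 8 of them chosen after seeing the data. Atf4 remained the called gene at low intensity and on the static array in every leave-one-out fit, with log2 fold changes of 0.74 to 0.83 (edgeR adjusted p 0.000826 to 0.0209) and 0.67 to 0.84 (edgeR adjusted p 0.00293 to 0.0494). The replicate numbers were not shown to pair libraries: same-numbered libraries correlated at -0.22 to 0.18. Between the arrays the 3 same-numbered pairs ran from -0.12 to 0.18, beside a mean of -0.023 for other numbers. There 2 of the 3 pairs were over 0.1, and 2 actuated libraries matched best with the static library of their own number. A pairing in the array arm is thus not settled. With the replicate block, Atf4 had edgeR adjusted p 0.0423 at low intensity and 0.0354 on the static array, and the counts of called genes did not move.

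The count of called genes among the 10 was 1 at low intensity and 1 on the static array, and fell to 0 in both with all 26 libraries and with all except any 1 of the shallow libraries, or except control replicate 4 and low intensity replicate 6 together. At low intensity 5 were called on log2(TPM + 1) or log2(TPM + 0.1), where 27% and 27.6% of all genes were called. At high intensity over control the count rose from 0 to 1 with no low-count filter, DESeq2, either TPM scale or protein-coding genes only (1.88%, 3.16%, 10.6%, 10.8% and 0.977% of all genes called), and ranged from 0 to 1 over leave-one-out fits (1 without control replicate 2 or high intensity replicate 6). At high against low intensity it rose from 0 to 1 with no filter or DESeq2 (0.338% and 0.333% of all genes), and ranged from 0 to 1 (1 without high intensity replicate 3). Between the arrays it was 0 throughout.

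Signs turned in these cases, and the cause was not tested. Atf4 at high intensity over control became -0.19 with all 26 libraries, and -0.19, -0.19, -0.027, -0.025 and -0.19 with all libraries but static array replicate 3, low intensity replicate 6, control replicate 4, high intensity replicate 4 or high intensity replicate 5. On log2(TPM + 1) and log2(TPM + 0.1), high intensity over control became 0.065 and 0.066 for Asns and 0.088 and 0.089 for Ddit3; low intensity over control became 0.60 and 0.60 for Asns and 0.29 and 0.31 for Atf3; static array over control became 0.41 and 0.44 for Atf3. With all libraries but low intensity replicate 6, Asns at low intensity became 0.083. Atf3 on the static array became 0.015 with all 26 libraries, 0.018 with all but low intensity replicate 6 and 0.011 with all but high intensity replicate 5. Over leave-one-out fits, Trib3 ranged from -0.086 to 0.89 at high intensity and from -0.059 to 1.03 on the static array, and Chac1 from -0.020 to 0.47 at low intensity. Of the 32 other fold changes of the 10 genes, none called in the deeper libraries, 24 had another sign in at least 1 alternative, 0 were called in a count-based alternative and 4 on a TPM scale.

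Depth limits Trib3, Chac1 and Atf3 most, with as few as 4, 14 and 19 counts in a library.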
